A study of Bos taurus with 48 samples.

Results

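Activins, inhibins, follistatin and myostatin were described in the endometrium of 22 lactating Holstein-Friesian dairy cows on day 17 of the cycle, in pregnant and cyclic animals. The members were 9 genes: the activin and inhibin subunits INHBA, INHBB and INHA, the antagonists FST and FSTL3, the ligand MSTN, and the receptors ACVR1, ACVR2A and ACVR2B. Probes were taken as members when the gene name or the last bracketed symbol of the array's annotation matched, or when the probe's accession did. Of 21475 probes on the array, carrying 15487 distinct gene names, 10 belonged to 8 of the 9 genes. Names gave 8 probes of 6 genes, and accessions gave MSTN, listed on the array as GDF8, and ACVR2A, listed as ACVR2. No probe was found for ACVR2B, the other type II receptor of this group.

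The oestrous cycles of all cows were synchronised, 12 cows received a blastocyst on day 7 and were pregnant at slaughter on day 17, and 10 cows without a transferred embryo were cyclic. Each cow gave caruncular endometrium, the raised sites where the placenta attaches, and intercaruncular endometrium, which holds most of the glands. Among the pregnant cows the labels named 7 with a large embryo (above 20 cm and above 75 mg) and 5 with a small one (below 20 cm and below 40 mg), and 6 as fertile and 6 as sub-fertile. The RNA of each sample (44 in all) carried Cy5 and was set on its array against a Cy3-labelled pool, with no dye swap. Every value below is therefore a log2 ratio of the sample to that pool, and values of different genes are not levels that can be ranked against each other. RNA came from whole tissue, so fewer cells of a type and less RNA per cell cannot be told apart, and every pregnancy began with embryo transfer.

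Activins are dimers of inhibin beta subunits (INHBA or INHBB), and inhibins pair a beta subunit with the alpha subunit INHA. Activins and myostatin signal through type II receptors (ACVR2A, ACVR2B) and type I receptors to the intracellular SMAD2 and SMAD3 proteins, and inhibins oppose them by occupying the type II receptors. Follistatin (FST) and the related FSTL3 bind activins and myostatin outside the cell and keep them from their receptors, and in the uterus activin signalling and follistatin are known for roles in decidualization and implantation.

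The 48 arrays (4 caruncular samples were hybridised again and the arrays of a sample averaged) had 68.8% to 84.03% of spots well above background. The repeated arrays differed with an SD of 0.102 to 0.148 on the log2 scale over the probes bright enough to test. Slides held 4 arrays each and mostly cows of 1 state. Among first arrays, intercaruncular samples were scanned on the first scan date and caruncular samples on the second, with the exception of both samples of 2 cows, Pregnant_9790 and Cyclic_9786 (cows are named by their labels), scanned on the third. The tissue and the scan date cannot be told apart in the other 20 cows, and results are also given without these 2 cows where that changes a call. Of 12 listed conceptus markers 1, PAG1, could be tested and was not called for pregnancy in either tissue. Its probe was well above background on all 48 arrays, those of cyclic cows included, so it cannot show whether conceptus RNA was present. The probe of interferon tau (IFNT2) was well above background on 0 arrays.

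The FST probes, which read the transcript of follistatin, were the brightest of the members. Their median sample signals were 23490 and 23980 units, against 287.5 units for MSTN, 413.2 for INHA and between 1096 and 2569 for the tested probes of INHBA, INHBB, FSTL3, ACVR1 and ACVR2A, which are probe brightnesses and not amounts of RNA. One of the FST probes and the probe of WFIKKN1, a further extracellular antagonist described below, are shown because they read the antagonists that were higher in pregnant cows. The capitals in the FST sequence mark a TAA stop codon: the reading frame that starts at base 2 runs for 15 codons, the stop starts at base 47, and 11 bases follow it. In the WFIKKN1 sequence the frame from base 2 runs without a stop through 19 codons of the 60 bases.
FST probe A_73_106541: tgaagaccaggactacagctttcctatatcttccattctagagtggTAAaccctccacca
WFIKKN1 probe A_73_112504: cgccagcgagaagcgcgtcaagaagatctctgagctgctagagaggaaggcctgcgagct

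Pregnancy was compared first, to ask how an embryo in the uterus related to these genes in each tissue. In caruncular endometrium FST was higher and INHBA, INHBB and MSTN were lower in pregnant than in cyclic cows, and in intercaruncular endometrium FST was higher and INHBA lower. Of 14711 probes tested, 5.78% were called higher and 4.23% lower in caruncular tissue (at least 1.5-fold, Benjamini-Hochberg adjusted p under 0.05), and 4.01% higher and 3.27% lower in intercaruncular tissue. Of the 9 member probes tested, 2 were higher and 3 lower in caruncular tissue, and 2 were higher and 1 lower in intercaruncular tissue. The median log2 difference of the 9 probes was -0.19 in caruncular and -0.38 in intercaruncular tissue, against -0.04 and -0.01 over all tested probes.

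**Figure D1:**
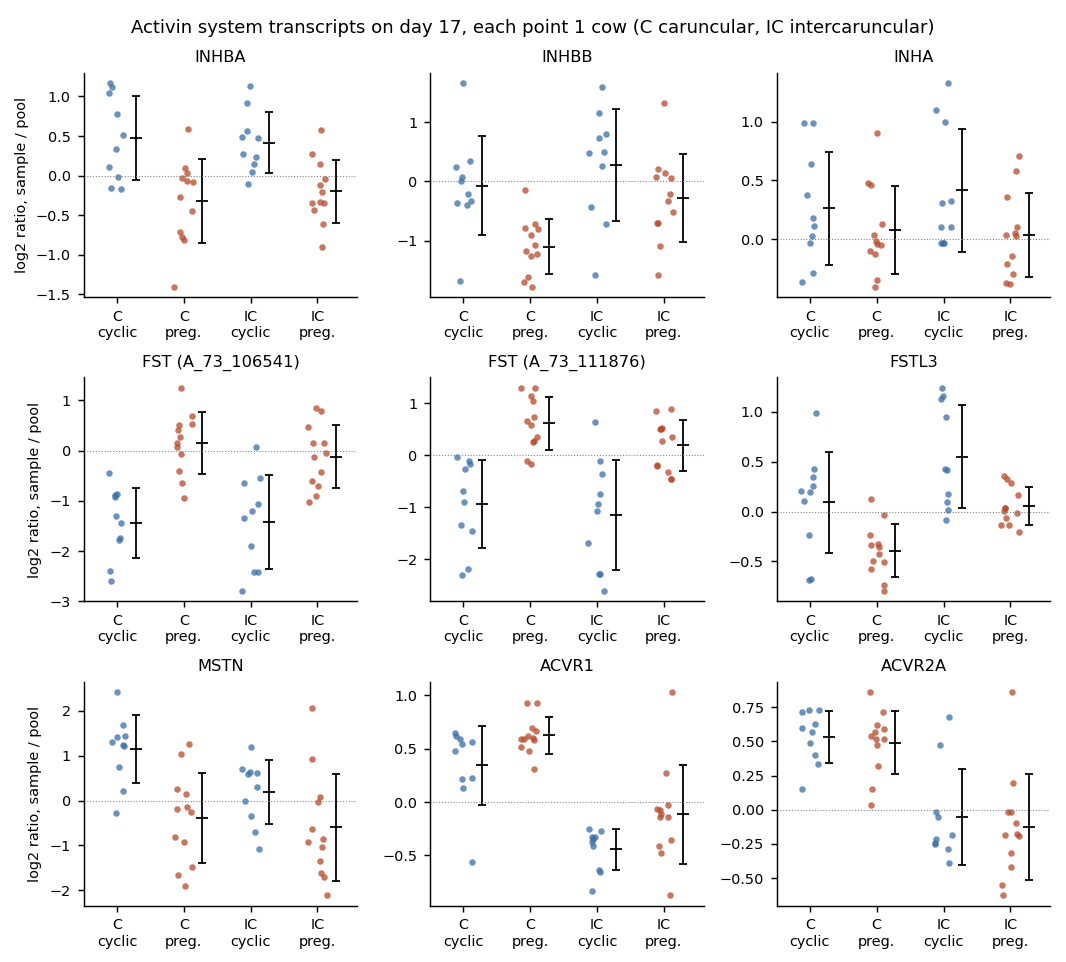
Log2 ratio to the pool (y axis) of each of the 9 tested member probes in every cow, by tissue (C, caruncular; IC, intercaruncular) and state, with the mean and SD of each group beside the points. In caruncular tissue 10 of 12 pregnant cows lay above every cyclic cow on each FST probe, whereas the points of ACVR2A and INHA overlapped between states.

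INHBA encodes the beta subunit of activin A. In caruncular tissue its log2 ratio was -1.41, -0.17 and 0.59 (lowest, median and highest) in the 12 pregnant cows and -0.16, 0.42 and 1.16 in the 10 cyclic cows. In intercaruncular tissue the corresponding ratios were -0.90, -0.27 and 0.58 in pregnant and -0.11, 0.37 and 1.13 in cyclic cows. In both tissues 11 of 12 pregnant cows lay below the cyclic mean, with 6 below every cyclic cow in caruncular and 8 in intercaruncular tissue, so the groups overlapped. The differences were -0.79 (SE 0.22, 1.73-fold lower, adjusted p = 0.0096) and -0.61 (SE 0.16, 1.53-fold lower, adjusted p = 0.0103) by limma. With normexp background correction the intercaruncular difference was -0.55, under the 1.5-fold limit. A second INHBA probe was too dim to test, with a median signal of 55.27 units, and its untested differences were -0.21 and 0.21.

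INHBB encodes the beta subunit of activin B. Its caruncular ratio was -1.79, -1.13 and -0.14 in pregnant and -1.69, -0.10 and 1.66 in cyclic cows. All 12 pregnant cows lay below the cyclic mean, and 2 lay below every cyclic cow, of which the lowest was Cyclic_9786. The difference was -1.03 (SE 0.27, 2.04-fold lower, adjusted p = 0.00667, limma). In intercaruncular tissue the ratio was -1.58, -0.27 and 1.33 in pregnant and -1.58, 0.49 and 1.60 in cyclic cows. The groups covered nearly the same range, and the difference of -0.56 (95% interval -1.25 to 0.14, adjusted p = 0.254) was not called. The pregnancy effects on INHBB in the tissues differed by -0.48 (SE 0.23) in a test of that difference, with an adjusted p of 0.286.

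MSTN encodes myostatin, a ligand best known for limiting the growth of skeletal muscle. Its caruncular ratio was -1.90, -0.23 and 1.25 in pregnant and -0.27, 1.27 and 2.43 in cyclic cows. Of the pregnant cows 11 lay below the cyclic mean and 5 below every cyclic cow. The difference was -1.53 (SE 0.36, 2.90-fold lower, adjusted p = 0.00376, limma). In intercaruncular tissue it was -2.12, -0.89 and 2.06 in pregnant and -1.08, 0.45 and 1.19 in cyclic cows, with 4 pregnant cows below and 1, Pregnant_9790, above every cyclic cow. That difference was -0.79 (95% interval -1.63 to 0.04, adjusted p = 0.169) and was not called. Without the 2 cows of the third scan date and with first arrays only, it was -0.99 with an adjusted p of 0.0428 (limma), past the threshold. The interaction for MSTN was -0.74 (SE 0.36, adjusted p = 0.285).

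Signs of muscle were measured beside these values. Of 5 skeletal muscle markers, MYH2 had no probe and none of the others was bright enough to test. CKM was well above background on 4 of 48 arrays, TNNT3 on 3, and ACTA1 and MYH1 on 0. Of 5 smooth muscle markers, 4 (ACTA2, MYH11, CNN1 and TAGLN) were lower in pregnant cows in both tissues. The mean level of the 5 ranged from -1.56 to 0.41 in pregnant and from -0.39 to 1.16 in cyclic cows in caruncular tissue, and from -1.73 to 0.00033 and from -1.24 to 0.90 in intercaruncular tissue. Of the other lists, 1 of 6 stromal markers was higher and 1 lower in caruncular tissue and 3 were lower in intercaruncular tissue, and of 5 epithelial markers 1 (CDH1) was higher in both tissues and 2 lower in caruncular tissue. PECAM1 was the 1 of 4 endothelial markers called, lower in both tissues. NKG7 was the 1 of 5 leukocyte markers called, higher in caruncular tissue, where the list had a median of 0.41, and 0 were called by limma in intercaruncular tissue (median 0.21). Of 3 genes of the steroid response, the receptors ESR1 and OXTR were lower in both tissues, with list medians of -0.96 and -0.86. The gland and conceptus lists had 0 called by limma. The part of these cell types in the member differences was not tested.

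INHA, whose product pairs with a beta subunit to form an inhibin, was not called. Its caruncular ratio was -0.41, -0.03 and 0.91 in pregnant and -0.36, 0.15 and 0.99 in cyclic cows, a difference of -0.19 (95% interval -0.55 to 0.17, adjusted p = 0.449). In intercaruncular tissue it was -0.38, 0.03 and 0.70 against -0.03, 0.21 and 1.32, a difference of -0.38 (95% interval -0.75 to -0.0073, adjusted p = 0.139). Of the pregnant cows 5 of 12 lay below every cyclic cow there, and the rest overlapped.

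FST, which encodes follistatin, separated the states in most cows. On the probe printed above, the caruncular ratio was -0.95, 0.22 and 1.26 in pregnant and -2.60, -1.37 and -0.44 in cyclic cows. On the other probe (A_73_111876) it was -0.16, 0.62 and 1.30 against -2.29, -0.79 and -0.02. All 12 pregnant cows lay above the cyclic mean and 10 above every cyclic cow on each probe. The differences were 1.59 (SE 0.26, 3.01-fold higher, adjusted p = 0.000155) and 1.56 (SE 0.28, 2.94-fold higher, adjusted p = 0.000299) by limma. On the first of these probes Cyclic_9778 is represented by its repeat array alone, since the first array gave no value.

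In intercaruncular tissue FST was -1.02, -0.08 and 0.84 in pregnant and -2.80, -1.27 and 0.08 in cyclic cows on the printed probe, and -0.45, 0.32 and 0.89 against -2.61, -0.998 and 0.64 on the other. All 12 pregnant cows again lay above the cyclic mean, but 5 and 2 lay above every cyclic cow. The highest cyclic cow on both probes was Cyclic_9786 of the third scan date. The differences were 1.31 (SE 0.32, 2.48-fold higher, adjusted p = 0.00565) and 1.34 (SE 0.32, 2.53-fold higher, adjusted p = 0.0056) by limma. With slide as a random block the printed probe gave 1.32 with an adjusted p of 0.0501 (limma), just short of a call. The probes differed within a sample by -0.27 to 0.79 with a median of 0.42, and had the same sign in both tissues.

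FSTL3, the follistatin-like antagonist, had differences of the opposite sign to FST and under the 1.5-fold limit. Its caruncular ratio was -0.80, -0.39 and 0.12 in pregnant and -0.69, 0.20 and 0.99 in cyclic cows, a difference of -0.48 (SE 0.16, 1.40-fold lower, adjusted p = 0.0303, limma). In intercaruncular tissue the ratios were -0.21, 0.02 and 0.35 against -0.08, 0.42 and 1.24, a difference of -0.50 (SE 0.15, 1.41-fold lower, adjusted p = 0.0261, limma). The pregnant cows below the cyclic mean numbered 11 in caruncular and 12 in intercaruncular tissue, and the ranges overlapped. With first arrays only and without the 2 cows of the third scan date, the caruncular difference was -0.61 with an adjusted p of 0.00456 (limma), past both limits.

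The receptors were not called in either tissue. ACVR1, a type I receptor that activins and bone morphogenetic proteins can use, had caruncular ratios of 0.31, 0.60 and 0.93 in pregnant and -0.56, 0.51 and 0.64 in cyclic cows. In intercaruncular tissue they were -0.88, -0.13 and 1.03 against -0.84, -0.36 and -0.26. Of the 12 pregnant cows 4 lay above every cyclic cow in caruncular tissue, and 8 above and 1 below in intercaruncular tissue. The ACVR1 differences were 0.28 (95% interval 0.04 to 0.52, adjusted p = 0.0815) in caruncular and 0.33 (95% interval 0.02 to 0.64, adjusted p = 0.127) in intercaruncular tissue. ACVR2A, a type II receptor of activins, inhibins and myostatin, differed by -0.04 (95% interval -0.23 to 0.15) and -0.08 (95% interval -0.40 to 0.24), with the pregnant cows of caruncular tissue lying 6 above and 6 below the cyclic mean.

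**Figure D2:**
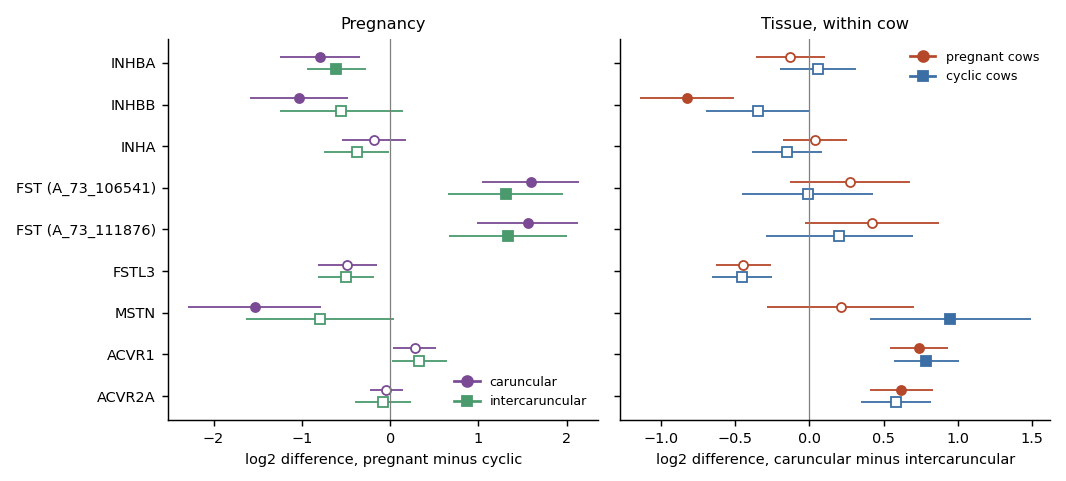
Log2 differences with 95% confidence intervals for each tested member probe, for pregnant less cyclic cows in each tissue (left) and caruncular less intercaruncular tissue in each state (right). Filled marks passed the threshold and open ones did not, and the FST differences lie between 1.31 and 1.59 on the left, with ACVR1 at 0.74 and 0.79 on the right.

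Slide and state went largely together, so the differences were also read within the few slides that held both states, which carry too few samples for a test of their own. On the caruncular slide with 3 pregnant cows and 1 cyclic cow, the FST differences were 1.69 and 1.75, INHBA -0.65, INHBB -1.12 and MSTN -0.39. On the intercaruncular slide with 3 pregnant cows and 1 cyclic cow, they were 1.96 and 2.19 for FST, -1.08 for INHBA and -0.65 for INHBB, while MSTN was 1.17 higher in the pregnant cows. These slides held the same cows, the sub-fertile Pregnant_3803, Pregnant_3807 and Pregnant_9921 and the cyclic Cyclic_3972, so they are not separate readings. Within them FST, INHBA and INHBB kept their direction, and MSTN turned in intercaruncular tissue. There Cyclic_3972 had the lowest MSTN of the cyclic cows, at -1.08. FSTL3 was -0.79 and -1.17. A further caruncular slide held arrays of 2 pregnant cows and 1 cyclic cow, repeat arrays included, and there the FST differences were 1.22 and 0.97, INHBA -0.52, INHBB -0.89, MSTN -0.011 and FSTL3 -0.34. The caruncular arrays of the third scan date (2 pregnant cows against 4 cyclic) include those of that slide and all repeat arrays, so this reading is not separate. Over them the FST differences were 1.04 and 0.90, INHBA -0.45, INHBB -0.61, MSTN -0.48 and FSTL3 0.0063. In intercaruncular tissue that date held only Pregnant_9790 and Cyclic_9786, between which FST differed by -0.20 and -0.10, INHBA by -0.88, INHBB by 1.71 and MSTN by 1.42, so FST, INHBB and MSTN ran against the difference of the groups in this pair. A fixed block for slide left no member called in either tissue.

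The difference between the pregnancy effects in the tissues of a cow was tested as an interaction. At an adjusted p under 0.05, 1.03% of all tested probes and 0 of 9 member probes were called by limma, and 2 member probes (INHBB and MSTN) had an unadjusted p under 0.05, as did 17.3% of all tested probes. For FST the interaction was 0.28 (95% interval -0.32 to 0.88) on the printed probe and 0.22 (95% interval -0.45 to 0.89) on the other, so intervals of this width do not settle whether the tissues responded alike.

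The balance of ligand to antagonist in each cow was described as the log2 ratio of a ligand less the mean of the FST probes. It is relative to the pool, so its sign says only whether the balance lay above or below that of the pool, and it carries no test. INHBA less FST in caruncular tissue was -1.77, -0.98 and 0.59 in pregnant and 0.36, 1.58 and 3.41 in cyclic cows. Of the pregnant cows 11 of 12 lay below every cyclic cow, and the means differed by -2.37. In intercaruncular tissue the values were -1.21, -0.41 and 0.88 against -0.09, 1.24 and 3.27, with 7 of 12 below every cyclic cow.

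INHBB less FST separated the states without overlap in caruncular tissue, at -2.51, -1.77 and -0.41 in pregnant and -0.10, 0.70 and 4.10 in cyclic cows. In intercaruncular tissue the ranges overlapped, at -2.23, -0.12 and 1.73 against -1.93, 1.86 and 4.30. There 1 of 12 pregnant cows lay below every cyclic cow and 6 of 10 cyclic cows above every pregnant cow. The lowest cyclic cow was Cyclic_9786 of the third scan date, with the next at -0.27. MSTN less FST was -2.65, -0.94 and 1.63 in pregnant and -0.04, 2.18 and 4.72 in cyclic cows in caruncular tissue. In intercaruncular tissue it was -2.37, -0.73 and 1.86 against 0.29, 1.00 and 3.54, with 9 of 12 pregnant cows below every cyclic cow. All 3 balances thus had lower medians in pregnant cows in both tissues, which combines differences already given above.

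**Figure D3:**
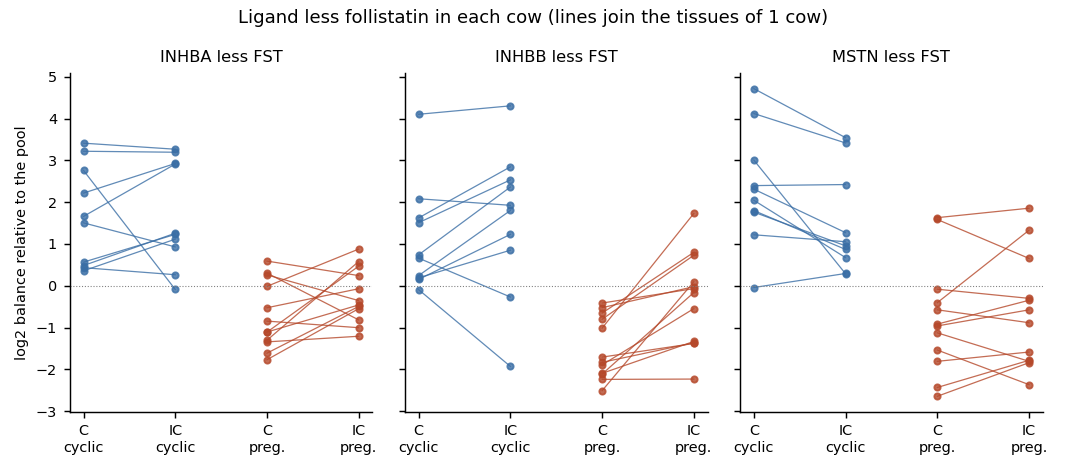
Log2 balance relative to the pool (y axis) of INHBA, INHBB and MSTN less the mean of the FST probes, by tissue and state, with a line joining the tissues of each cow. In caruncular tissue (C) the INHBB balance of all 12 pregnant cows lay below that of all 10 cyclic cows, and in intercaruncular tissue (IC) the ranges overlapped.

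The tissues of a cow were compared next, to ask where in the endometrium each member was read higher. In pregnant cows ACVR1 and ACVR2A were higher and INHBB was lower in caruncular than in intercaruncular tissue, and in cyclic cows ACVR1 and MSTN were higher. Of all tested probes, 9.45% were higher and 8.26% lower in caruncular tissue of pregnant cows, and 7.55% higher and 5.76% lower in cyclic cows. Of the 9 member probes, 2 were higher and 1 lower in pregnant cows, and 2 higher and 0 lower in cyclic cows. The median difference of the 9 probes was 0.21 in pregnant and 0.06 in cyclic cows, against -0.02 over all probes in both.

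ACVR1 had a caruncular less intercaruncular difference of -0.10, 0.71 and 1.35 (lowest, median and highest) over 12 pregnant and 0.07, 0.85 and 1.06 over 10 cyclic cows. It was higher in caruncular tissue in 11 of 12 and 10 of 10 cows, with means of 0.74 (SE 0.10, adjusted p = 1.00e-06) and 0.79 (SE 0.10, adjusted p = 5.00e-06) by limma. The 2 cows whose tissues shared a scan date were the lowest of their groups, at -0.10 for Pregnant_9790 and 0.07 for Cyclic_9786. The part of the scan date in this difference was not tested.

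ACVR2A differed by 0.0017, 0.74 and 0.96 in pregnant and -0.34, 0.76 and 0.96 in cyclic cows. It was higher in caruncular tissue in 12 of 12 and 8 of 10 cows. The mean differences were 0.62 (SE 0.10, 1.54-fold, adjusted p = 2.27e-05) and 0.58 (SE 0.11, 1.499-fold, adjusted p = 0.0002), by limma, the latter just under the 1.5-fold limit. Here too the cows with both tissues on 1 scan date were the lowest, at 0.0017 and -0.34. Without them, on first arrays only, the cyclic difference was 0.70 with an adjusted p of 2.21e-06 (limma).

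INHBB was lower in caruncular tissue in all 12 pregnant cows, with differences of -2.14, -0.72 and -0.04, and in 7 of 10 cyclic cows, with -0.92, -0.41 and 0.39. The means were -0.82 (SE 0.15, 1.77-fold lower, adjusted p = 7.96e-05) and -0.35 (SE 0.17, adjusted p = 0.0827) by limma. Pregnant_9790, with both tissues on 1 scan date, differed by -0.93, near the middle of its group, and Cyclic_9786 by -0.11.

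MSTN was higher in caruncular tissue in 9 of 10 cyclic cows, with differences of -0.37, 1.06 and 1.84 and a mean of 0.95 (SE 0.26, 1.93-fold, adjusted p = 0.00408, limma). In pregnant cows it was higher in 6 of 12, with -1.13, 0.29 and 2.27 and a mean of 0.21 (95% interval -0.28 to 0.71). With no replicate block for the cow, the cyclic difference was 0.95 with an adjusted p of 0.0679 (limma) and lost its call.

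FSTL3 was lower in caruncular tissue in 11 of 12 pregnant and 9 of 10 cyclic cows, by -0.44 (SE 0.09, adjusted p = 0.000174) and -0.46 (SE 0.10, adjusted p = 0.000484) in limma, both under 1.5-fold. The pregnant exception was Pregnant_9790 at 0.09, with both tissues on 1 scan date, and Cyclic_9786 differed by -0.77. FST differed by 0.27 and 0.42 in pregnant cows and by -0.01 and 0.20 in cyclic cows on its probes, with adjusted p of 0.231, 0.0976, 0.970 and 0.490 by limma. Cyclic_9786 was the lowest cow for FST, at -1.81 and -2.09. INHBA and INHA differed by between -0.15 and 0.06 in either state.

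**Figure D4:**
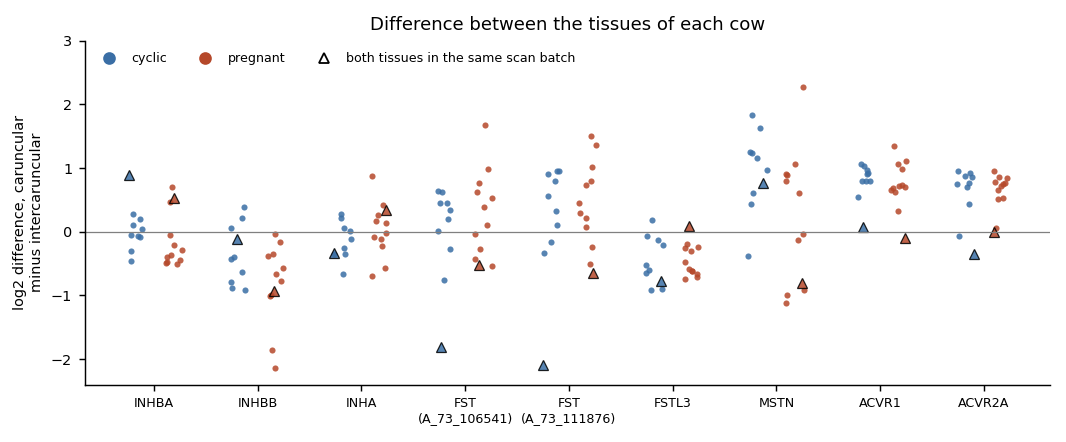
Caruncular less intercaruncular log2 difference (y axis) of each tested member probe in each cow, by state, with triangles for the 2 cows whose tissues were scanned on the same date. Nearly all points of ACVR1 and ACVR2A lie above 0 and those of FSTL3 below it, and the triangles are the lowest points of ACVR1 and ACVR2A in each state.

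Cell type markers differed between the tissues as well. Of 6 stromal markers, 5 were higher in caruncular tissue of pregnant and 3 in that of cyclic cows. Of 2 gland markers tested, FOXA2, a gland transcription factor, was called lower, at -2.65 (adjusted p = 7.58e-07) in pregnant and -1.56 (adjusted p = 0.00114) in cyclic cows, and SERPINA14, a secreted uterine protein, was not called, at 0.29 (adjusted p = 0.234) and -0.15 (adjusted p = 0.599). All 5 epithelial markers were called in pregnant cows, KRT8, KRT18, KRT19 and EPCAM lower and CDH1 higher in caruncular tissue, and KRT18 was lower in cyclic cows. Of 5 smooth muscle markers, DES and TAGLN were higher in pregnant and TAGLN in cyclic cows, and of 5 leukocyte markers CD3E was lower in cyclic cows. The mean level of the stromal list ranged from -0.61 to 1.17 in caruncular and from -0.76 to 0.19 in intercaruncular tissue of pregnant cows. In cyclic cows it ranged from 0.09 to 1.45 and from 0.01 to 0.73. The part of these cell types in the differences of ACVR1, ACVR2A and INHBB was not tested.

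Cows with a large and a small embryo were compared to ask whether the members differed with the size reached by day 17. In intercaruncular tissue INHA was lower with a large embryo, and in caruncular tissue no member was called. At an adjusted p under 0.05, 3.7% of all tested probes were called in intercaruncular and 0% in caruncular tissue, where 6.92% had an unadjusted p under 0.05. Of 9 member probes 1 was called in intercaruncular tissue, with 3 at an unadjusted p under 0.05, against 21.5% of all tested probes. Leaving out 1 cow moved the 545 probes called there to between 34 (without Pregnant_932) and 1883 (without Pregnant_9790), and by over 1.5 times without every cow except Pregnant_3956 (645) and Pregnant_9921 (381). In caruncular tissue 0 were called by limma and 1, INHBA, had an unadjusted p under 0.05 (-0.58, 95% interval -1.12 to -0.04, adjusted p = 0.703).

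INHA in intercaruncular tissue was -0.38, -0.21 and 0.05 (lowest, median and highest) in the 7 cows with a large embryo. In the 5 with a small embryo it was 0.02, 0.11, 0.36, 0.58 and 0.70. All 7 lay below the mean of the 5, and 5 of the 7 below each of them. The difference was -0.54 (SE 0.13, 1.45-fold lower, adjusted p = 0.0462, limma), close to the threshold in a comparison called without a fold limit. Leaving out 1 cow at a time gave -0.62 to -0.45 with adjusted p from 0.032 to 0.128, and the call was kept only without Pregnant_977 and without Pregnant_9790. It was lost without each of the others, Pregnant_926, Pregnant_932, Pregnant_1943, Pregnant_3803, Pregnant_3805, Pregnant_3807, Pregnant_3956, Pregnant_3957, Pregnant_9246 and Pregnant_9921.

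FST in the same tissue was higher with a large embryo on both probes but was not called. On the printed probe it was -0.61, 0.16 and 0.84 with a large embryo and -1.02, -0.91, -0.70, -0.43 and -0.04 with a small one. On the other probe it was -0.19, 0.51 and 0.89 against -0.45, -0.45, -0.32, -0.20 and 0.51. All 7 cows with a large embryo lay above the mean of the small ones on the printed probe and 6 on the other. The differences were 0.86 (95% interval 0.31 to 1.41, adjusted p = 0.0785) and 0.64 (95% interval 0.19 to 1.09, adjusted p = 0.101) by limma. With the fertility label as a covariate the printed probe gave 0.96 (adjusted p = 0.0274), and with slide as a random block 0.88 (adjusted p = 0.0457), both past the threshold.

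In caruncular tissue the FST differences between embryo sizes were 0.18 (95% interval -0.55 to 0.90) and 0.01 (95% interval -0.61 to 0.62). All 12 pregnant cows lay above the cyclic mean on both FST probes in both tissues, so cows with either embryo size necessarily did. Above every cyclic cow in caruncular tissue were 6 of 7 with a large and 4 of 5 with a small embryo on each probe. In intercaruncular tissue 5 of 7 on the printed and 2 of 7 on the other probe were so with a large embryo, and 0 of 5 with a small one. These comparisons share the same 10 cyclic cows. INHBA less FST in intercaruncular tissue lay below the pool in all 7 cows with a large embryo (-1.21, -0.55 and -0.07). With a small embryo it was -0.36, 0.24, 0.47, 0.58 and 0.88, above the pool in 4 of 5. The other balances split less. In intercaruncular tissue INHBB less FST lay below the pool in 6 of 7 cows with a large and 2 of 5 with a small embryo. MSTN less FST did so in 5 of 7 and 4 of 5. In caruncular tissue the corresponding counts were 6 of 7 and 3 of 5 for INHBA, 7 of 7 and 5 of 5 for INHBB, and 6 of 7 and 4 of 5 for MSTN.

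Markers moved with embryo size in the same tissue: COL3A1, a stromal collagen, was 0.92 lower (adjusted p = 0.0492) and PECAM1, an endothelial adhesion molecule, was 0.93 lower (adjusted p = 0.0383) with a large embryo, each the only gene of its list called. The 5 smooth muscle markers had a median of -0.59 with 0 called by limma. Their part in the INHA and FST values was not tested.

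Fertile and sub-fertile pregnant cows were compared to ask whether the members followed the fertility label. No member was called in either tissue, and of all tested probes 0% were called in caruncular tissue, where 13.8% had an unadjusted p under 0.05, and 0.0476% in intercaruncular tissue, where 13.6% did. Among the 9 member probes, 4 in caruncular tissue (MSTN, ACVR2A and both FST probes) and 1 in intercaruncular tissue (MSTN) had an unadjusted p under 0.05.

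MSTN was -1.90, -1.20 and 0.15 in the 6 fertile and -0.83, 0.06 and 1.25 in the 6 sub-fertile cows in caruncular tissue. In intercaruncular tissue it was -2.12, -1.49 and -0.86 in fertile and -1.04, 0.03 and 2.06 in sub-fertile cows. In both tissues all 6 fertile cows lay below the sub-fertile mean and 4 below every sub-fertile cow. The differences were -1.24 (95% interval -2.15 to -0.33, adjusted p = 0.286) and -1.66 (95% interval -2.63 to -0.69, adjusted p = 0.176), by limma, wide and not past the threshold. Pregnant_9790 of the third scan date was the highest sub-fertile cow in both tissues. Slide and fertility label went largely together. With slide as a fixed block the MSTN differences were -0.39 in caruncular and -0.63 in intercaruncular tissue, and neither was called.

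FST in caruncular tissue was 0.07, 0.46 and 1.26 in fertile and -0.95, -0.24 and 0.54 in sub-fertile cows on the printed probe, a difference of 0.76 (95% interval 0.21 to 1.32, adjusted p = 0.285, limma). The other probe gave 0.64 (95% interval 0.17 to 1.11, adjusted p = 0.286, limma). All 6 fertile cows lay above the sub-fertile mean on both probes. With slide as a fixed block the FST differences were 0.41 and 0.50, also not called. ACVR2A in that tissue was lower by 0.30 in fertile cows (95% interval -0.53 to -0.07, adjusted p = 0.296, limma). The direction of MSTN less FST followed from these values: it was below the pool in all 6 fertile cows in each tissue, and above it in 2 sub-fertile cows in caruncular and 3 in intercaruncular tissue.

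**Figure D5:**
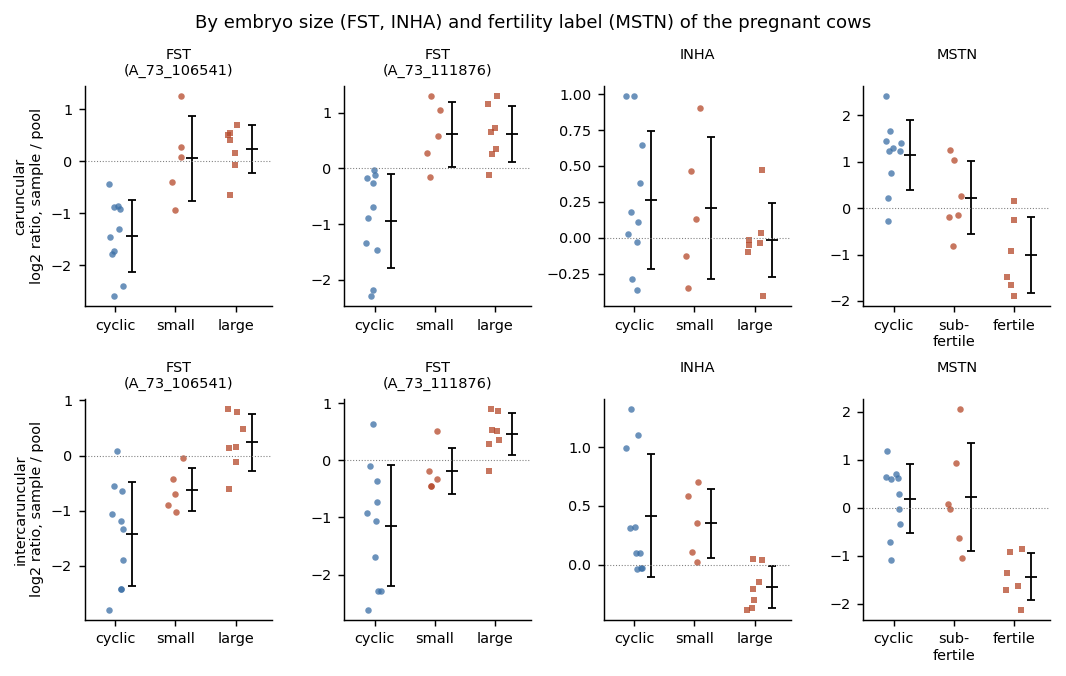
Log2 ratio to the pool (y axis) of FST and INHA in cyclic cows and pregnant cows with a small or large embryo, and of MSTN in cyclic, sub-fertile and fertile cows, by tissue. In intercaruncular tissue INHA of 5 of 7 cows with a large embryo lay below all 5 with a small one. In both tissues MSTN of 4 of 6 fertile cows lay below all sub-fertile cows, with slide and fertility label largely together.

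Of 34 further genes of the pathway, listed by role, 25 could be tested, and the pregnancy comparison called 1 of them in caruncular and 0 in intercaruncular tissue. WFIKKN1, a secreted protein that binds myostatin and its propeptide, was 1.31 higher in pregnant cows in caruncular tissue (SE 0.32, adjusted p = 0.00461, limma), the probe printed beside that of FST. In intercaruncular tissue it was 0.92 higher (SE 0.34, adjusted p = 0.056, limma), short of the threshold. The other tested groups had no call in either tissue: 2 other ligands, 5 type I receptors and co-receptors, 4 processing proteases, 5 intracellular mediators including the SMAD proteins, and 7 intracellular inhibitors. Each gene was read on its brightest tested probe, and some differences passed the adjusted p but not 1.5-fold. SMAD3 was -0.30 in caruncular and -0.25 in intercaruncular tissue, and SKI -0.32 and -0.45 (adjusted p from 0.00319 to 0.0159, limma). Their other probes gave 0.0062 and 0.17 for SMAD3 and -0.0058 and 0.13 for SKI. PPM1A was -0.18 in caruncular (adjusted p = 0.0405) and TGIF1 0.24 in intercaruncular tissue (adjusted p = 0.0441, limma). The median difference of the 25 genes was -0.03 in caruncular and -0.02 in intercaruncular tissue.

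Between the tissues, 3 of the 25 genes were called in pregnant cows and 1 in cyclic cows. DCN, a matrix proteoglycan that binds growth factors, was 0.76 higher and PCSK5, a protease that processes proproteins, 0.69 higher in caruncular tissue of pregnant cows, and TDGF1, a co-receptor of the ligand NODAL, was 1.06 lower. SMURF2, a ubiquitin ligase of the SMAD pathway, was 0.66 lower in caruncular tissue of cyclic cows. The interaction, embryo size and fertility label gave 0 calls among the 25 by limma.

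The genes whose pattern over cows was most like that of a member were taken on the mean of the tissues of a cow less the mean of its state, among 14711 probes and 22 cows. These are the highest of many correlations and carry no p. INHBA was nearest to SRPX2 (r = 0.85, rho = 0.81), PAXBP1 (r = 0.84, rho = 0.84) and PRRX1 (r = 0.84, rho = 0.80). INHBB was nearest to RBM14 (r = 0.86, rho = 0.78), CLCF1 (r = 0.85, rho = 0.65) and GALNT6 (r = 0.84, rho = 0.72). These INHBB relations leaned on few cows, with r of 0.71, 0.69 and 0.65 once the 2 cows farthest from its median were left out. FST was nearest to FLJ21986 (r = 0.88, rho = 0.80), RTN1 (r = 0.86, rho = 0.86) and PECR (r = 0.85, rho = 0.84). MSTN was nearest to ZNF651 (r = 0.83, rho = 0.78), the oxytocin receptor OXTR (r = 0.83, rho = 0.83) and ATF7IP2 (r = 0.81, rho = 0.82). OXTR itself differed by -2.98 in caruncular and -2.94 in intercaruncular tissue between pregnant and cyclic cows (adjusted p = 3.65e-07 and 0.000183, limma).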

How the data were processed

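The scanner files deposited by the authors hold spot intensities and log10 ratios from Agilent Feature Extraction (version 9.5.3.1 per the file headers), with background subtraction, outlier flags and LOWESS dye normalization within each array. The authors' deposited matrix of log2 ratios, used as an alternative, correlated with them at 0.98 or more on every array. The members and gene lists were chosen with earlier results of these data known.

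Log10 ratios were converted to log2 and the spots of each probe averaged, the median of each array (0 on all) was subtracted, and repeat arrays were averaged. Probes entered the tests if 22 or more of the 44 samples had a signal of 80 units or more that exceeded background by the scanner software's own criterion. Tests were made on all such probes with limma 3.58.1 in R 4.3.3 (lmFit, eBayes), with Benjamini-Hochberg adjustment. The fits were also run on simulated data that held no slide or scan date effects, so that check does not cover such effects. Pregnancy and tissue calls needed 1.5-fold and an adjusted p under 0.05, and the others the adjusted p alone. Pregnancy, embryo size and fertility were fitted within each tissue, and tissue and its interaction on the differences within a cow. The tissues of a cow correlated at 0.109 to 0.869 in their deviations from group means (median 0.613, 22 cows).

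Named were all members, pathway genes past the pregnancy threshold, and the 3 genes most like each member called for pregnancy. The pathway genes named for the tissue difference alone and the markers were named after their values were seen. Alternatives were no centring of the arrays, normexp (offset 50) with loess, the deposited matrix, no filter, a filter of 33 samples and first arrays only. Further ones were the methods' t-test, scan date or slide as a block, the other label as a covariate and no replicate block. For embryo size each cow was also left out in turn. Python 3.11.15, pandas 2.3.3, numpy 2.4.6, scipy 1.17.1, matplotlib 3.10.9 and the R package data.table (version 1.17.8) made tables and figures.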

Additional observations from a re-analysis of the deposited data

Results flagged for a closer look

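Of 90 groups of 5 to 10 cows checked over the member probes, 4 held a cow whose gap to its neighbour was large against the range of its group, and chance alone gives about 1 in 20 groups. FST (probe A_73_111876) in intercaruncular tissue of the cows with a small embryo was 0.51 in Pregnant_932, with the nearest cow at -0.20. ACVR1 in caruncular tissue of cyclic cows was -0.56 in Cyclic_9786, with the nearest at 0.14, and in sub-fertile cows it was 0.93 in Pregnant_9790, with the nearest at 0.69. ACVR2A in intercaruncular tissue of cows with a large embryo was 0.86 in Pregnant_9790, with the nearest at -0.02. Cyclic_9786 and Pregnant_9790 are the 2 cows whose tissues were both scanned on the third date.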

How the results depend on the processing

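Alternatives other than leaving out a cow were counted together. Of the member values 668 kept their direction and call, 13 lost a call, 6 gained one and 24 changed sign. Of the counts of members called and the balances of INHBA and INHBB, 84 stayed and 7 moved. The cause was not tested for any of these changes. The values that stayed include those without centring, which could not change because every array median was already 0. The MSTN balance was not run under the alternatives. The fit with slide as a fixed block rests on 1 slide of each tissue with both states (each sample on the slide of its first array). Both slides held the same cows, with Cyclic_3972 the only cyclic one. In that fit 0 members were called for pregnancy in either tissue, and intercaruncular MSTN became 1.17. Of all probes 58 instead of 1473 were called in caruncular and 129 instead of 1071 in intercaruncular tissue. With the cow not used as a replicate block (the pairing of tissues), 1 member instead of 2 was called between the tissues of cyclic cows, and the interaction called 3 probes instead of 152. The interaction called 98 probes with first arrays only. For embryo size in intercaruncular tissue, 0 members were called with no filter, 2 with slide as a random block, 0 with it fixed and 2 with fertility as a covariate, and leaving out 1 cow gave 0 to 2 (0 to 0 in caruncular tissue). The corresponding counts of all probes for that tissue were 319, 878, 1088 and 706, against 545. Slide as a random block called 656 probes for pregnancy in intercaruncular tissue, and FST (A_73_106541) then had an adjusted p of 0.0501 (1.32). Normexp put INHBA there at -0.55, under 1.5-fold. The fertility label in intercaruncular tissue called 4 probes with no filter, 3 with slide as a random block and 0 with it fixed, against 7.

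Chosen after the data were seen was the fit on first arrays without Cyclic_9786 and Pregnant_9790. It put cyclic tissue differences of INHBA at -0.036 and FST (A_73_106541) at 0.11, and the interactions of FSTL3 at -0.063 and ACVR2A at -0.023, and it called 492 probes for the interaction. The remaining changes of sign were in differences that had not been called. The deposited matrix gave FST 0.031 between tissues of cyclic cows, and normexp gave FSTL3 -0.0033 in the interaction. For embryo size in caruncular tissue FST (A_73_111876) was -0.0069 with normexp, -0.00068 with first arrays and -0.017 with slide as a random block. ACVR2A there was -0.0049 with normexp, -0.064 with slide fixed and -0.033 with fertility as a covariate, and ACVR1 -0.075 with slide fixed. In intercaruncular tissue ACVR1 was -0.092 with slide fixed and -0.032 with the covariate. For fertility with slide fixed, INHBB was 0.24 and FSTL3 0.038 in caruncular tissue, and INHBB 0.46, FST -0.10 and -0.11 and ACVR2A 0.034 in intercaruncular tissue. With embryo size as a covariate INHA was -0.019 and FSTL3 -0.017 there. Leaving out 1 cow moved the caruncular embryo size differences of INHBB from -0.39 to 0.024, of FST from -0.073 to 0.48 and from -0.19 to 0.18, of ACVR1 from -0.048 to 0.11 and of ACVR2A from -0.093 to 0.076, and the intercaruncular one of ACVR1 from -0.14 to 0.17. Array number limits precision: 5 cows had a small embryo.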

Other observations

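The likeness of a cow's tissues was computed as 18 relations (9 probes in 2 states). Pearson's r ranged from -0.30 to 0.87, with 17 of 18 above 0, and 1 passed an adjusted p for r and 0 for rho in permutation tests of 100000 resamples (two-sided). That relation was INHBB in 10 cyclic cows (r = 0.87, adjusted permutation p = 0.0216; rho = 0.83, adjusted permutation p = 0.0815), with r of 0.66 once 2 cows were left out. FST in 12 pregnant cows had r of 0.39 and 0.05 on its probes (adjusted permutation p of 0.262 and 0.883; rho of 0.45 and 0.03, adjusted permutation p of 0.222 and 0.939).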
